A study of Drosophila melanogaster with 10 samples.

Results

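The mitochondrial electron transport chain passes electrons from NADH and succinate to oxygen through 4 membrane complexes and pumps protons on the way. Complex I (NADH dehydrogenase) and complex II (succinate dehydrogenase) reduce ubiquinone, complex III (the cytochrome bc1 complex) passes the electrons to cytochrome c, and complex IV (cytochrome c oxidase) passes them to oxygen. Most subunits are encoded in the nucleus, and flies carry duplicate genes for several of them, many of which are expressed mainly in the testis.

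The genes described here are those whose array annotation for biological process names mitochondrial electron transport. Of 68 such probe sets (the groups of oligonucleotides that read 1 transcript), 62 carried exactly 1 gene symbol, and these stand for 57 genes among 12270 named genes on the array. The brightest probe set was taken for each gene. The term text places 28 of the genes in complex I, 5 in complex II, 12 in complex III and 12 in complex IV. The set includes a few genes that encode no subunit. CIA30 (CG7598) encodes an assembly factor of complex I, CG14757 and CG12895 encode relatives of an assembly factor of succinate dehydrogenase, and Coq8 (CG32649) belongs to ubiquinone synthesis. Gene names are current RefSeq symbols, with the symbol of the array file in brackets where it differs.

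The cells were DL1, a cultured Drosophila melanogaster line in which bathing in double-stranded RNA (dsRNA) gives RNAi. The 10 arrays hold 5 independent replicates bathed in dsRNA against renilla as control RNAi, and 5 bathed with dsRNA against nbr (CG9247), all grown at 25˚C and collected after 5 days. The gene nbr encodes Nibbler, which shortens microRNAs from their 3' end. The comparison asks which genes are affected by its knockdown. Levels are log2 values per probe set after GCRMA, a method that corrects each probe's background from its sequence. The number of arrays limits the precision, and in these bulk cultures fewer cells expressing a gene and less RNA per cell cannot be told apart.

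The targeted gene fell on all nbr RNAi arrays. The nbr probe set read 11.16 to 11.48 on the control arrays and 7.56 to 8.84 on the nbr RNAi arrays, and its log2 fold change was -3.16 ± 0.20 (SE, n = 5 per group; limma, Benjamini-Hochberg adjusted p = 1.46e-04). Of 11 hemocyte (blood cell) markers 10 were above the filter used here, a mean log2 level of 4 over the 10 arrays. All 5 fat body markers, 4 of 5 neuron markers, 4 of 5 muscle markers and 9 of 10 germline and testis markers were under it. Pairs of arrays correlated at 0.977 to 0.998 across probe sets.

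Most tested genes of the electron transport chain had closely similar levels in control RNAi and nbr RNAi. Of the 57 genes, 46 passed the filter and were tested and 11 did not. None of the 46 passed limma's test over all 7729 probe sets fitted (0 called, with 0 at an unadjusted p under 0.05), where 0.0259% of all probe sets were called and 5.87% had an unadjusted p under 0.05. The lowest Benjamini-Hochberg adjusted p in limma was 0.865. None of the 46 had groups of arrays that did not overlap, against 0.970% of all those fitted. Their log2 fold changes had a median of 0.023, and those of all probe sets fitted a median of 0.0056. The log2 fold change was above 0 for 35 of the 46 members (76.1%), against 52.9% of all probe sets tested. That count depended on single arrays. Without nbr RNAi array 5 it was 18 of 46, with a median of -0.0093, while 52.3% of all probe sets tested were above 0. Across all runs that left out 1 array, the count was 18 to 39 of 46, with medians from -0.0093 to 0.048. It also moved with the scaling of the arrays, to 26 of 46 after quantile normalization and 30 of 46 after median centring.

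The intervals were narrow for nearly all of these genes. The 95% interval of limma lay within a 1.5-fold change either way for 45 of the 46 members, against 92.9% of all probe sets tested. It lay within a 1.25-fold change for 42 of them, against 74.6%. The median standard error of the members' log2 fold changes was 0.056, and 0.071 over all probe sets tested. The member whose interval reached beyond 1.5-fold was UQCR-14L, a dim paralog in complex III. Among the other 45 the log2 fold changes ran from -0.076 for ND-B18 (CG5548) to 0.11 for ND-B15 (CG12859), both accessory subunits of complex I. The plot of fold changes by complex shows that all 46 intervals include 0.

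**Figure D1:**
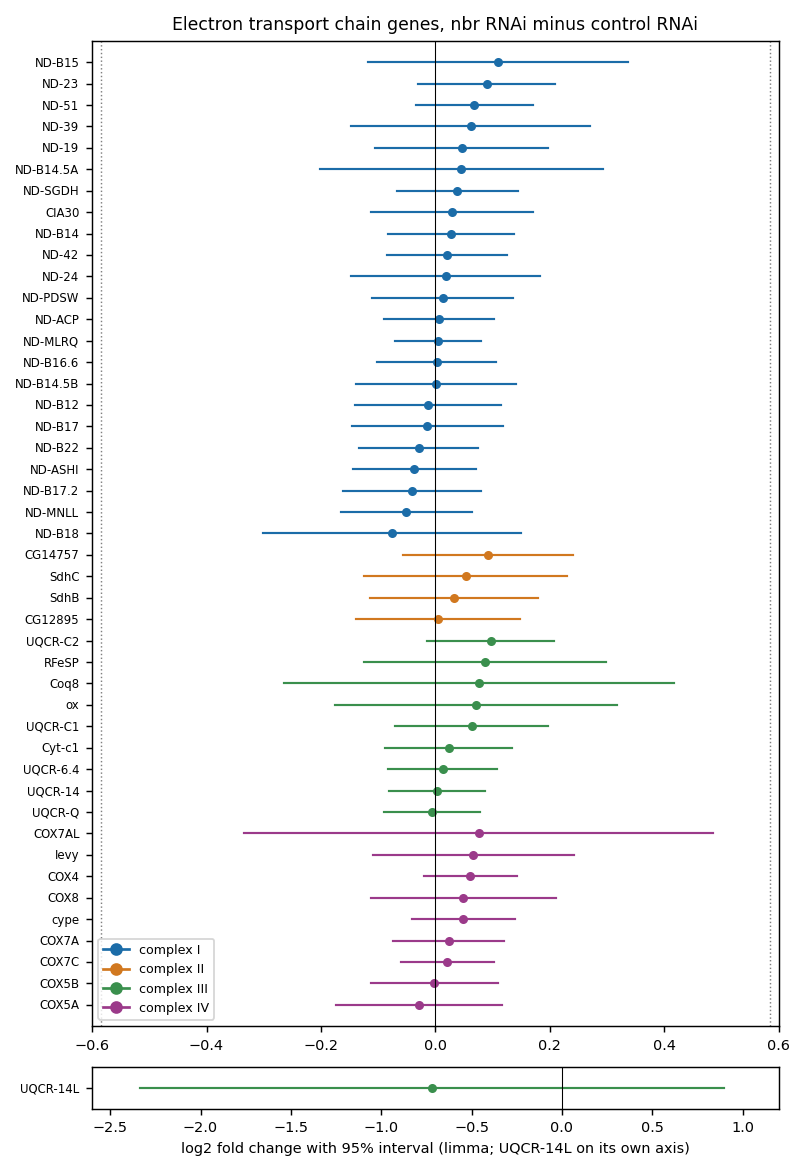
Log2 fold change (x axis, nbr RNAi minus control RNAi) of the 46 tested members (y axis) with 95% intervals from limma, coloured by complex; dotted lines mark a 1.5-fold change either way, and UQCR-14L is drawn below on a wider axis. All 46 intervals include 0, and that of UQCR-14L runs from -2.34 to 0.90.

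Complex I is the largest group and takes electrons from NADH through a flavin and a row of iron-sulfur centres. Of its 28 genes 23 were tested and none was called, with 16 log2 fold changes above 0, 7 below 0 and a median of 0.012. Without nbr RNAi array 5 the counts turned, to 7 above 0 and 16 below 0 with a median of -0.017. The smallest p on the higher side was that of ND-23 (ND23), an iron-sulfur subunit. It read 11.79, 11.87, 11.74, 11.94 and 11.69 on control arrays 1 to 5 and 11.85, 11.88, 11.84, 11.94 and 11.97 on nbr RNAi arrays 1 to 5. The groups overlapped, with control array 4 level with nbr RNAi array 4, and the log2 fold change was 0.089 (95% interval -0.031 to 0.21; limma, Benjamini-Hochberg adjusted p = 0.866).

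ND-51 (CG9140), the subunit that holds the flavin and takes electrons from NADH, was at a log2 fold change of 0.068 (95% interval -0.034 to 0.17). On the lower side, the small accessory subunit ND-MNLL (CG18624) was at -0.051 (-0.17 to 0.064) and the accessory subunit ND-ASHI (CG3192) at -0.037 (-0.14 to 0.071). The probe set of ND-MNLL is of a kind that can also read transcripts of other genes, as are those of ND-19 (CG3683), ND-PDSW (Pdsw) and UQCR-C1. ND-MLRQ (CG32230), named for its high control mean, had the smallest range of the tested genes of the complex, reading from 14.57 to 14.66 over all 10 arrays. CIA30 read 10.55 to 10.77 on the control arrays and 10.55 to 10.87 on the nbr RNAi arrays, and had a log2 fold change of 0.029, or -0.017 without nbr RNAi array 5.

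Of the complex I members, ND-ACP and ND-B17 were read by more than 1 probe set. The acyl carrier protein ND-ACP (mtacp1) had 3, with log2 fold changes of 0.0062, -0.080 and -0.085 for the brightest, the middle and the dimmest, all with overlapping groups. The 2 probe sets of ND-B17 (l(2)35Di) were at -0.015 and -0.011.

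Complex II is the only complex that also works in the tricarboxylic acid cycle. Of its 5 genes 4 were tested, all 4 with log2 fold changes above 0, a median of 0.043 and none called. Without nbr RNAi array 5, 2 were above 0 and 2 below 0, with a median of -0.0016. The iron-sulfur subunit gene SdhB was at 0.033 (95% interval -0.11 to 0.18), the membrane anchor gene SdhC at 0.053 (-0.12 to 0.23), CG14757 at 0.092 (-0.057 to 0.24) and CG12895 at 0.0051.

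In SdhC the difference lay on 1 array. It read 11.30, 11.33, 11.41, 11.42 and 11.34 on control arrays 1 to 5, and 11.35, 11.34, 11.36, 11.28 and 11.73 on nbr RNAi arrays 1 to 5. Only nbr RNAi array 5 lay above the control range, and without it the log2 fold change was -0.027. CG14757 read 8.80, 8.81, 8.81, 8.82 and 8.75 on control arrays 1 to 5, and 8.81, 8.83, 8.90, 8.77 and 9.14 on nbr RNAi arrays 1 to 5. Here nbr RNAi arrays 2, 3 and 5 lay above all controls, with array 5 farthest from them.

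Complex III contains the heme and Rieske iron-sulfur proteins that carry electrons to cytochrome c, with a pair of core proteins on the matrix side. Of its 12 genes 10 were tested, 8 with log2 fold changes above 0, 2 below 0, a median of 0.043 and none called. Without nbr RNAi array 5 the counts turned, to 3 above 0 and 7 below 0 with a median of -0.0045. The core protein gene UQCR-C2 (CG4169) had the smallest p of all members in limma. It read 12.79, 12.86, 12.90, 12.91 and 12.80 on control arrays 1 to 5 and 12.99, 12.87, 12.94, 12.87 and 13.08 on nbr RNAi arrays 1 to 5. Nbr RNAi arrays 1, 3 and 5 lay above all controls and arrays 2 and 4 lay within their range. Its log2 fold change was 0.097 (95% interval -0.015 to 0.21), a 1.07-fold higher mean (limma, Benjamini-Hochberg adjusted p = 0.865).

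The other core protein gene, UQCR-C1 (CG3731), was at a log2 fold change of 0.063 (95% interval -0.070 to 0.20). The Rieske iron-sulfur protein gene RFeSP was at 0.087, and Cyt-c1 (CG4769), the cytochrome c1 gene, at 0.023. Leaving out nbr RNAi array 5, these were 0.021 for RFeSP and -0.0055 for Cyt-c1. UQCR-14 (CG3560), a small subunit named for its high control mean, was at 0.0028, and UQCR-Q (CG7580), another small subunit, at -0.0058. The second probe set of RFeSP read 2.46 to 2.57 on all arrays, at the low end of the scale, so only the brighter one informs on this gene.

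Complex IV, the oxidase that ends the chain, had 12 genes, 9 of them tested. Of these, 7 had log2 fold changes above 0 and 2 below 0, with a median of 0.048 and none called. Without nbr RNAi array 5, 6 were above 0 and 3 below 0, with a median of 0.0099. COX7C (CG2249), a small subunit named for its high control mean, was at a log2 fold change of 0.021. The second probe set of COX7C, near the filter with a mean of 4.37, was at 0.057 (95% interval -0.35 to 0.47). COX4 (CG10664) encodes a regulatory subunit. It read 13.52, 13.61, 13.59, 13.64 and 13.61 on control arrays 1 to 5 and 13.64, 13.65, 13.63, 13.63 and 13.71 on nbr RNAi arrays 1 to 5. Nbr RNAi arrays 1, 2 and 5 lay above all controls, and arrays 3 and 4 lay just under control array 4. The log2 fold change was 0.061 (95% interval -0.021 to 0.14), a 1.04-fold higher mean (limma, Benjamini-Hochberg adjusted p = 0.866).

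An exact 2-sided permutation test over all splits of the arrays into groups of 5 gave COX4 an unadjusted p of 0.0238, and no other of the 46 tested members was under 0.05 in that test. No share over all probe sets is given for that test, so this count is not a result about the chain. In limma 5.87% of all probe sets tested had an unadjusted p under 0.05. In the authors' deposited table COX4 has the lowest unadjusted p of the members, 0.0398, with a fold change of 1.04 and a q-value of 19.5%. UQCR-C2 has the same q-value in the authors' deposited table, and every other member has a higher one. On the lower side, COX5A (CoVa) was at -0.029 (95% interval -0.17 to 0.12) and COX5B (CG11015) at -0.0023 (-0.11 to 0.11), both nuclear-encoded subunits of the oxidase. The small subunit gene cype was at 0.048 (-0.042 to 0.14). The tested log2 fold changes of cytochrome c oxidase genes thus ran from -0.029 for COX5A to 0.075 for COX7AL.

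Cytochrome c, the carrier between complexes III and IV, did not carry the annotation term. Its gene Cyt-c-p was at a log2 fold change of 0.031 (95% interval -0.077 to 0.14), and Cyt-c-d, its paralog, read 2.12 to 2.19 on all 10 arrays, under the filter.

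Array nbr 5 stood apart from the other nbr RNAi arrays across the whole chain. Of the 46 members 41 were higher on it than the mean of nbr RNAi arrays 1 to 4 (89.1%), with a median log2 difference of 0.15, against 61.3% and 0.066 over all probe sets tested. It was the highest of the 5 nbr RNAi arrays for 38 members (82.6%), against 45.6% of all probe sets tested, and the highest of all 10 arrays for 30 members, against 33.1%. The members below the mean of the other 4 on this array were UQCR-14L, COX7A (CG9603), ND-B14 (CG7712), CG12895 and UQCR-Q. The targeted gene nbr read 8.84 on this array and 7.56 to 8.48 on nbr RNAi arrays 1 to 4. The part of this difference in the shift of the chain was not tested.

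By complex, array nbr 5 was above the mean of the others for 22 of 23 genes in complex I, 3 of 4 in complex II, 8 of 10 in complex III and 8 of 9 in complex IV. The median differences were 0.11, 0.27, 0.15 and 0.13 on the log2 scale. The other nbr RNAi arrays, each set against the remaining 4 in the same way, had median differences over the members from -0.089 (array 4) to 0.0083 (array 1).

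A control array also stood apart. Control array 4 was above the mean of the other controls for 44 of the 46 members, by a median of 0.13, against 53.9% and 0.013 over all probe sets tested. It was the highest of the 5 controls for 39 members, against 28.4% of all probe sets tested. Other mitochondrial lists described below were also above the mean of the other controls on control array 4. These were 14 of 15 assembly factors (median 0.16), 7 of 9 genes of ATP synthase (0.12) and 6 of 7 of coenzyme Q synthesis (0.087). For carriers and import it was 15 of 19 (0.0355), for the tricarboxylic acid cycle 8 of 15 (0.036) and for mitochondrial DNA maintenance 4 of 13 (-0.010). Control arrays 1 and 5 were above the mean of their group for 2 of the 46 members each, with medians of -0.077 and -0.084. The median level of the members varied between arrays of a group with an SD of 0.071 on the log2 scale, larger than the median difference between the groups. The 10 hemocyte markers over the filter moved otherwise on array nbr 5, with 3 of 10 above the mean of nbr RNAi arrays 1 to 4 and a median difference of -0.17. The summed log2 level of all 11 hemocyte markers was 112.1 to 113.5 on the control arrays and 110.4 to 114.2 on the nbr RNAi arrays. The part of these markers in the shifts of the chain was not tested.

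**Figure D2:**
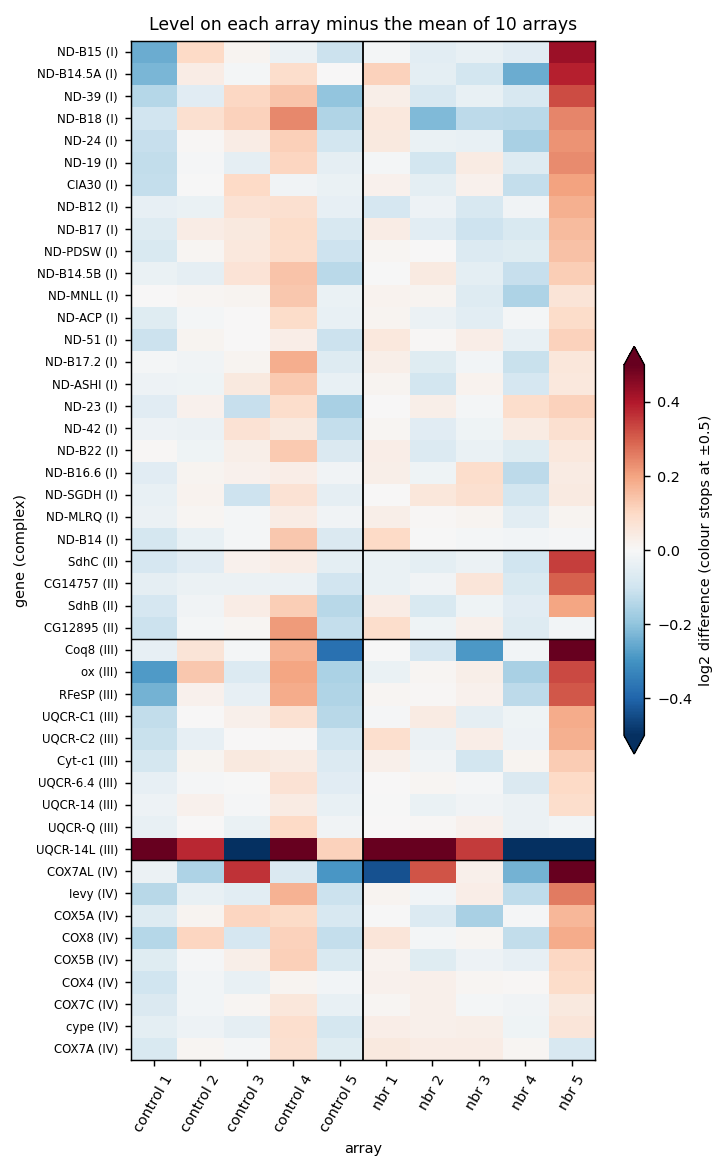
Level of each of the 46 tested members (rows, ordered by complex and then by the difference on nbr RNAi array 5) on each of the 10 arrays (columns), as the log2 difference from that gene's mean over the 10 arrays. The columns of control array 4 and nbr RNAi array 5 are mostly above the mean, those of control arrays 1 and 5 and nbr RNAi array 4 mostly below it, and UQCR-14L goes the other way on nbr RNAi array 5.

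**Figure D3:**
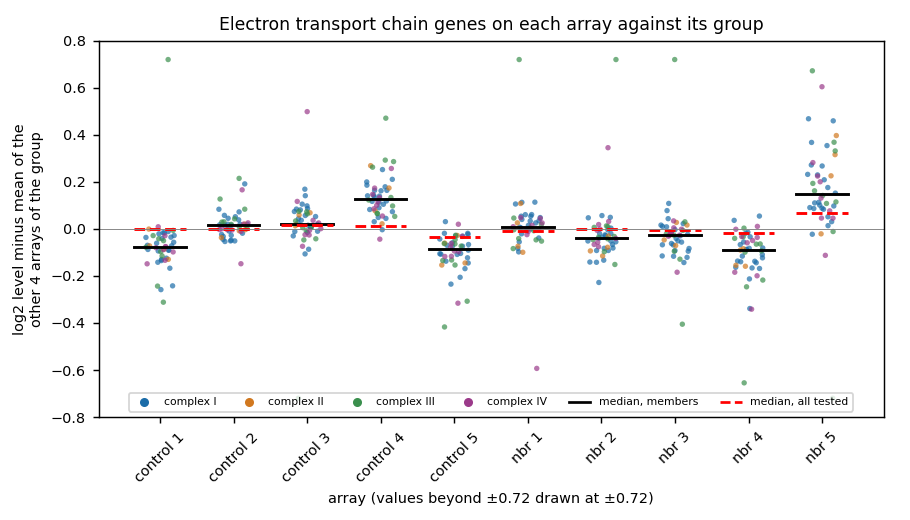
Log2 level of the 46 tested members on each array minus the mean of the other 4 arrays of the group (points coloured by complex), with values beyond 0.72 either way drawn at 0.72, the median of the members (black) and that of all 7729 probe sets tested (red, dashed). The black median is 0.13 on control array 4 and 0.15 on nbr RNAi array 5, where the red one is 0.013 and 0.066.

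Among the members other than UQCR-14L, the difference on array nbr 5 was larger at lower levels. For the 7 members with a mean log2 level from 8 to under 11, all 7 were higher, by 0.20 to 0.60 with a median of 0.35, and the median over the 2756 probe sets of that band was 0.12. In the band from 11 to under 12 the median was 0.27 for 8 members and 0.092 for all 1443 probe sets. From 12 to under 13 it was 0.18 for 9 members and 0.059 for all 1254, and from 13 upwards 0.099 for 20 members and 0.027 for all 1178. In each of these 4 bands the members' median was thus above that of all probe sets of like level. Spearman's rho between level and the difference was -0.58 across the 46 members, -0.69 without UQCR-14L and -0.094 across all 7729 probe sets tested. These points share the same 5 arrays and are not independent.

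ND-B15 shows the pattern in a gene of moderate level. It read 9.45, 9.79, 9.71, 9.66 and 9.59 on control arrays 1 to 5 and 9.68, 9.64, 9.66, 9.64 and 10.12 on nbr RNAi arrays 1 to 5. The first 4 nbr RNAi arrays lay within the control range and array 5 above it. The next largest differences on array 5 among genes of complex I were 0.46 for ND-B14.5A (CG3621), 0.37 for ND-39 (CG6020) and 0.35 for ND-B18. Coq8 had the largest difference of all members, 0.67, followed by COX7AL (CG18193) with 0.60. At the other end, COX7A, a small subunit of the oxidase, was lower on array 5 by -0.11, reading 13.80 there and 13.88 to 13.92 on nbr RNAi arrays 1 to 4.

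**Figure D4:**
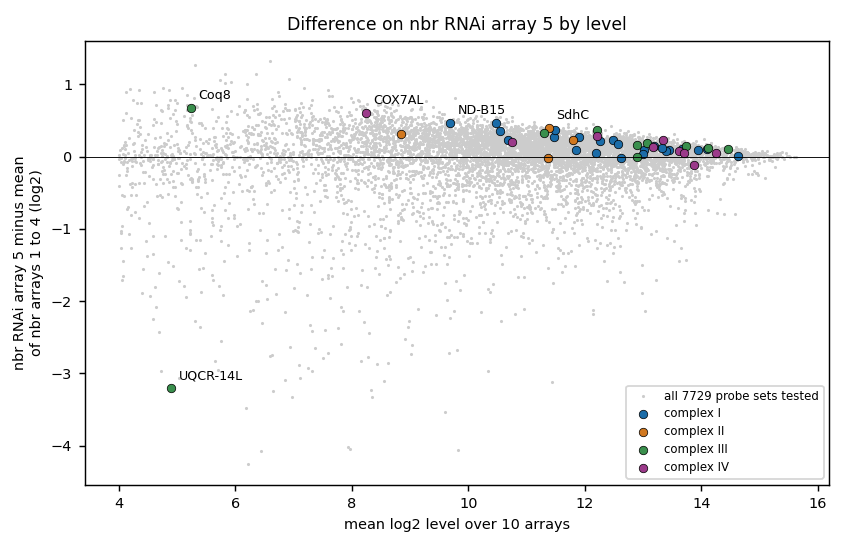
Log2 level on nbr RNAi array 5 minus the mean of nbr RNAi arrays 1 to 4 (y axis) against the mean log2 level over 10 arrays (x axis), for the 46 tested members (coloured by complex) and all 7729 probe sets tested (grey). Of the members 41 lie above 0, with Coq8 highest at 0.67 and UQCR-14L lowest at -3.20.

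UQCR-14L (CG17856), a paralog of the complex III subunit gene UQCR-14, varied more than any other member. It read 6.45, 5.28, 3.93, 5.64 and 5.02 on control arrays 1 to 5 and 5.75, 5.72, 5.25, 4.02 and 1.98 on nbr RNAi arrays 1 to 5. Control array 3 and nbr RNAi array 4 were near the filter, and nbr RNAi array 5 was in the range of the genes under it, while the other 7 arrays read above 5. Its range over the arrays was 4.47 on the log2 scale, and it was the only tested member with a range above 1. The group means were 5.26 ± 0.92 in control RNAi and 4.55 ± 1.59 in nbr RNAi (SD, n = 5). The log2 fold change was -0.72 with a 95% interval of -2.34 to 0.90 (limma, Benjamini-Hochberg adjusted p = 0.909), and it was -0.079 without nbr RNAi array 5. The male germ line gene bol was also lower on array 5, by -1.56 from the mean of nbr RNAi arrays 1 to 4. The other 9 of the 10 germline and testis markers were under the filter and set no limit on a change. The hemocyte marker eater was also lower on array 5, by -1.51. The differences of the 10 hemocyte markers over the filter ran from -1.51 to 0.34, with 3 above the mean of arrays 1 to 4. The part of bol in the result was not tested. UQCR-14 itself read 14.42 to 14.55 on all 10 arrays.

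COX7AL, a paralog of COX7A, was the other gene of this kind that passed the filter. It read 8.22, 8.09, 8.61, 8.17 and 7.96 on control arrays 1 to 5 and 7.81, 8.56, 8.27, 8.01 and 8.77 on nbr RNAi arrays 1 to 5. The groups overlapped throughout, with nbr RNAi array 1 the lowest of the 10 arrays and nbr RNAi array 5 the highest. Its log2 fold change was 0.075 (95% interval -0.33 to 0.49), and -0.046 without nbr RNAi array 5. Coq8 read 4.87 to 5.41 on the control arrays and 4.95 to 5.23 on nbr RNAi arrays 1 to 4, with array 5 at 5.81. Its log2 fold change was 0.075 with all arrays and -0.059 without nbr RNAi array 5.

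The 11 members under the filter read between 1.94 and 2.70 on every array. Of all probe sets other than controls 58.8% were under the filter, and the lower quartile of an array was 2.12. By their symbols, 9 of the 11 are paralogs of named chain subunits: ND-20L (CG2014), ND-24L (CG6485), ND-49L (CG11913) and ND-51L2 (CG8102) in complex I, SdhCL (CG6629) in complex II, Cyt-c1L (CG14508) and UQCR-11L (CG30354) in complex III, and COX4L (CG10396) and COX5BL (CG11043) in complex IV. Of the paralogs among the members, 9 of 11 were thus near the low end of the scale and UQCR-14L and COX7AL above it. Of 10 germline and testis markers, 9 were also under the filter, and bol, which acts in the male germ line, had a control mean of 7.41.

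The other 2 dim members were ND-B8 (CG15434), an accessory subunit of complex I, and CG18809. ND-B8 read 2.14 to 2.20 on every array, so this probe set gives no information on that gene. The dim probe set of CG18809 is of a kind that can read several genes, and a second, bright probe set of the term is annotated to both CG18809 and CG14235, the gene of the oxidase subunit COX6B. COX5BL had 1 high reading, 2.70 on control array 3, with 2.15 to 2.22 on the other 9 arrays. CG18809 was also highest on control array 3, at 2.17. Levels so close to background set no limit on a change of these genes.

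**Figure D5:**
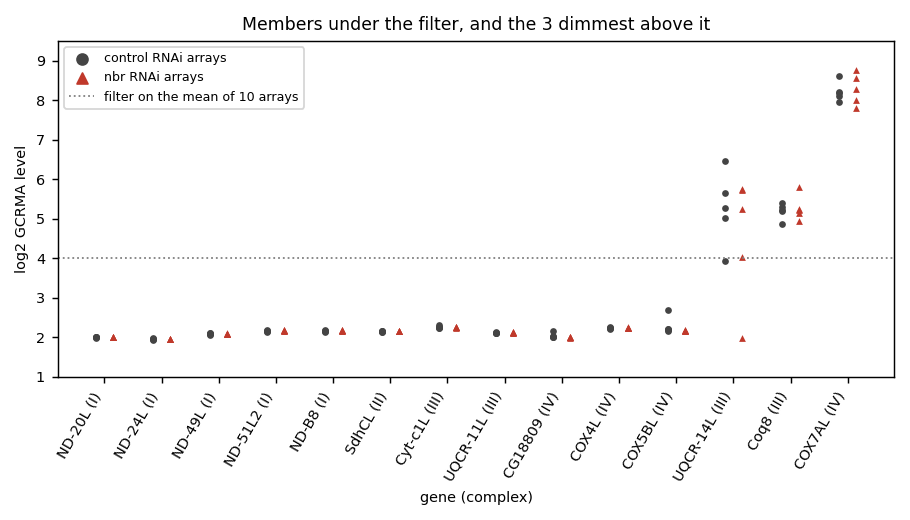
Log2 GCRMA level (y axis) on the 5 control RNAi arrays (grey circles) and the 5 nbr RNAi arrays (red triangles) for the 11 members under the filter and for UQCR-14L, Coq8 and COX7AL, the 3 dimmest above it; the dotted line is the filter on the mean, 4. The 11 sit between 1.94 and 2.70, while UQCR-14L spreads from 1.98 to 6.45.

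Left out by the rule of exactly 1 symbol were 5 probe sets annotated to several genes and 1 with no symbol. The 5 read subunits of complex I and COX6B together with another gene, and their log2 fold changes ran from -0.015 to 0.040. The probe set with no symbol, annotated to ubiquinol to cytochrome c transport, read 5.38 to 5.80 on the control arrays, 5.22 to 5.66 on nbr RNAi arrays 1 to 4 and 4.31 on array 5. With these 6 added, 52 probe sets were tested, none was called and the median log2 fold change was 0.020.

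Other genes of mitochondrial energy metabolism were examined beside the chain. None was called in any of the 6 lists, against 0.0259% of all probe sets tested. Of all probe sets tested 52.9% had log2 fold changes above 0, and 52.3% without nbr RNAi array 5. ATP synthase makes ATP from the proton gradient, and of its 15 matched genes 9 were tested, 7 with log2 fold changes above 0, 2 below 0 and a median of 0.027 (5, 4 and 0.0042 without nbr RNAi array 5). ATPsyngamma, the gene of the central stalk, was at 0.10 (95% interval 0.012 to 0.19; limma, Benjamini-Hochberg adjusted p = 0.849), and blw, the gene of the catalytic head's alpha subunit, at 0.056. Among 15 tested genes of the tricarboxylic acid cycle and pyruvate dehydrogenase the median was 0.035, with 11 above 0 and 4 below 0. Without nbr RNAi array 5 these counts stayed at 11 and 4, with a median of 0.034. Scsalpha1, a subunit of succinyl-CoA ligase, was at 0.10, and Pdha, a subunit of pyruvate dehydrogenase, at 0.091.

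Assembly factors of the complexes were mostly on the other side of 0. Of 15 tested, 2 had log2 fold changes above 0 (13.3%, against 52.9% of all probe sets tested) and 13 below 0, with a median of -0.062. CIA30 and CG14757 belong to this list too and were counted with the chain, both with log2 fold changes above 0 (0.029 and 0.092). CG5569 was at -0.16 (95% interval -0.28 to -0.044) and the copper chaperone gene Scox at -0.13 (-0.26 to 0.0055), and neither passed (limma, Benjamini-Hochberg adjusted p = 0.849 and 0.854). Without nbr RNAi array 5 the median of the assembly factors was -0.14. On array 5, 13 of the 15 read higher than on average over arrays 1 to 4, against 61.3% of all probe sets tested. The median difference was 0.28, against 0.066 over all probe sets tested.

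Of 7 tested genes of coenzyme Q synthesis, 4 were above 0 (57.1%, near the 52.9% over all probe sets tested) and 3 below 0. Their median was 0.0079, with Coq2 at 0.074 and Coq7 at -0.057. Without nbr RNAi array 5, 2 of the 7 were above 0 and 5 below 0, with a median of -0.011. Coq8 belongs to this list too and was counted with the chain, at 0.075 (-0.059 without nbr RNAi array 5). Of 13 genes of mitochondrial DNA maintenance and transcription, 3 were above 0 and 10 below 0, with a median of -0.045. Leaving out nbr RNAi array 5 gave 6 above 0 and 7 below 0, with the median still -0.045. The protease gene Lon was at 0.16 (0.028 to 0.29) and mTerf3 at -0.083. Of 19 inner membrane carriers and import genes, 11 were above 0 (57.9%, near the 52.9% over all probe sets tested) and 8 below 0. Their median was 0.020 (10, 9 and 0.0010 without nbr RNAi array 5), with the import gene Tom7 at 0.097 and the phosphate carrier gene Mpcp2 at 0.081. On array nbr 5, 61.3% of all probe sets tested were above the mean of arrays 1 to 4. The cycle, with 10 of 15 (66.7%), and DNA maintenance, with 9 of 13 (69.2%), were near that share. The count was 8 of 9 for ATP synthase, 6 of 7 for coenzyme Q synthesis and 16 of 19 for carriers and import, beside 41 of 46 for the chain.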

How the data were processed

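Per the labels' protocols, TRIzol RNA was amplified (Ovation Pico WTA) and labelled with biotin. The authors deposited a log2 level for each probe set and array. The submitters' processing notes name GCRMA and Partek, with no version or order, and no genome build is used here. The levels in both deposited tables were identical (189520 of 189520 values). The deposited statistics table gives a fold change, p-value, q-value and score, per the file headers, which write tmr where the labels write nbr RNAi. Of these, values of COX4 and UQCR-C2 are given.

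Members had exactly 1 symbol and the annotation term, with the brightest probe set per gene. All 57 were renamed through RefSeq accessions (Release 6 plus ISO1 MT); nbr keeps the labels' spelling. Control probe sets and those with a mean under 4 were left out, and 7729 were fitted with limma 3.58.1 in R 4.3.3 (lmFit, eBayes, no covariates, 2-sided, Benjamini-Hochberg over all, called under 0.05). The fit was tested on simulated data. Tables and plots used Python 3.11.15, pandas 2.3.3 and matplotlib 3.10.9.

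Named genes were nbr, any called or non-overlapping member, per complex the 2 smallest p in each direction and the highest control mean, every member under the filter, Cyt-c-p and Cyt-c-d, the 2 largest differences on nbr RNAi array 5 in each direction, and 2 genes per other list. Others were chosen after their values were seen. Members and lists were chosen with earlier results of these data known. Same-numbered arrays deviated together in 2 of 5 pairs (correlation of deviations over 0.1), so numbers were not taken as pairs. Alternatives were other filters, scalings and variance models, array weights, the replicate block, 1 probe set per gene, other probe set rules and leaving out each array. Sequences are not shown here.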

Additional observations from a re-analysis of the deposited data

Results flagged for a closer look

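Of 114 groups of 5 arrays (57 members in each of 2 groups), 13 (11.4%) had 1 array far from the other 4 by Dixon's test. Chance marks about 1 in 20 independent groups, but these members share the same arrays. Among the tested members 9 of 92 groups (9.78%) were marked, against 10.8% over all probe sets tested. In 6 of the 13 that array was nbr RNAi array 5, higher than the rest, in 6 of the 46 tested members and in 412 (5.33%) of all 7729 probe sets tested. It read 13.71 for COX4 (others 13.63 to 13.65), 10.12 for ND-B15 (others 9.64 to 9.68) and 11.73 for SdhC (others 11.28 to 11.36). It read 11.82 for ND-39 (others 11.41 to 11.52), 14.55 for UQCR-14 (others 14.43 to 14.46) and 12.65 for ND-B12, an accessory subunit of complex I (others 12.39 to 12.46). These 6 genes lie in complexes I to IV.

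Among the other tested members, ND-B14 was high on nbr RNAi array 1 at 12.72 (others 12.61 to 12.62), and ND-MNLL was high on control array 4 at 13.46 (others 13.29 to 13.34). CG14757 was low on control array 5 at 8.75 (others 8.80 to 8.82).

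The other 4 lie under the filter. COX5BL read 2.70 on control array 3 (others 2.17 to 2.22) and CG18809 read 2.17 on the same array (others 2.00 to 2.03). ND-49L read 2.07 on control array 4 (others 2.10) and COX4L read 2.26 on nbr RNAi array 4 (others 2.23 to 2.24).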

How the results depend on the processing

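None of the members was called under any alternative run (no filter or one at 5, quantile normalization, median centring, array weights, robust trend, an unmoderated test, the replicate block, other probe set rules, an adjusted p under 0.1, each array left out). Of 582 alternative values, 547 counted as unchanged, 26 log2 fold changes of single genes changed sign and 9 moved. A median counted as unchanged when it moved by less than the SD between arrays, and 7 of these medians did change sign. They were the complex I median with quantile normalization (-0.0015) and without control array 1 or 5, and those of all members and of complexes I to III without nbr RNAi array 5. The median log2 fold change of the members ran from -0.0093 (without nbr RNAi array 5) to 0.048 with 1 array left out. The medians ran from -0.017 to 0.035 in complex I, -0.0016 to 0.068 in complex II, -0.0045 to 0.063 in complex III and 0.0099 to 0.067 in complex IV. The members above 0 ran from 18 to 39 of 46, and numbered 28 with array weights. With all arrays, 1 member had an unadjusted p under 0.05 in limma with no filter, with array weights and in the unmoderated test, as 1 did without control array 4. In the main run 0 members were under 0.05, against 5.87% of all probe sets tested. The shares over all probe sets in these 4 other runs are not given. Quantile normalization turned ND-MLRQ to -0.0060 and UQCR-14 to -0.00068, and median centring turned them to -0.0017 and -0.0033. Array weights turned UQCR-Q to 0.0068, UQCR-14 to -0.014, Coq8 to -0.078 and COX7AL to -0.068. The cause of these changes of sign was not tested. Leaving out 1 array gave ranges across 0 for ND-MLRQ (-0.0027 to 0.018), SdhC (-0.027 to 0.084), SdhB (-0.013 to 0.067), UQCR-Q (-0.016 to 0.019), UQCR-14 (-0.019 to 0.013), COX5A (-0.074 to 0.0080), COX5B (-0.029 to 0.027), Coq8 (-0.059 to 0.16) and COX7AL (-0.046 to 0.19). UQCR-14L ran from -1.05 to -0.079. The members' median difference on nbr RNAi array 5 was 0.16 after quantile normalization and 0.12 after median centring. Each of nbr RNAi arrays 1 to 4 taken in place of array 5 gave -0.089 to 0.0083. Same-numbered arrays were not taken as pairs. The correlation of their deviations ran from -0.47 to 0.18, and with the replicate block 0 members were called and the median stayed 0.023. Probe sets annotated to several genes or to none were added after seeing the data and gave 52 tested, 0 called and a median of 0.020. The 11 dim members read near background and set no limit on a change.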
